A study of Mus musculus with 8 samples.

Results

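Kinesins are motor proteins that use ATP to move along microtubules or to take their ends apart. The genes described here are the protein-coding mouse genes with a kinesin family symbol (Kif or Kifc followed by a number) whose summed count over the 8 libraries was 80 or more. Of 43 protein-coding genes with such a symbol 32 met this minimum, out of 53465 gene IDs in the files. A further gene, Kif16bos, is annotated as antisense and was left out. Kif5a, with 239 counts, lay nearest to the minimum from above and Kif27, with 31, nearest from below. One of the 32, Kif1bp, has a matching symbol but encodes a protein that binds kinesins and is no motor, so 31 motor genes remain. By known function 13 of these were classed as mitotic, 13 as transport and 5 as other kinesins.

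The libraries come from regulatory T cells (Tregs) made in culture from wild-type C57BL/6 mice. Total CD4+ T cells of spleen and peripheral lymph nodes (the tissue label names the spleen alone) were positively selected and grown for 72 h on plates coated with 5 µg/mL anti-CD3. The medium held 5 ng/mL TGF-β, 100 U/mL IL-2, 0.5 µg/mL anti-CD28 and blocking antibodies to IFN-γ, IL-12 and IL-4. Cells were then split, and 4 libraries come from cells without the drug (control) and 4 from cells given BMS309403 at 50 µM (treated), an inhibitor of fatty acid-binding proteins. The labels give neither a vehicle nor the length of exposure, so effects of the compound and of a solvent cannot be told apart.

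Libraries held 32.9 to 44.6 M counts. Foxp3, the lineage factor of Tregs, was present in both groups, at a mean of 950 CPM (counts per M of the scaled library total) in control and 1247 in treated libraries. Of 7 Treg and CD4 T cell markers 4 were called higher in treated libraries (Foxp3, Il2ra, Tnfrsf18 and Ikzf2) and Cd3e lower. Of all genes tested 18.7% were called higher and 18.1% lower, at an edgeR adjusted p under 0.05. The part of the marker shift in the kinesin results was not tested. The starting cells were not sorted for Foxp3, so the share of Tregs in each culture is unknown. Markers of other cells were low: 5 CD8 T cell and NK genes summed to 10.6 to 14.7 CPM in control and 11.3 to 15.9 in treated libraries, with Ncr1 at 0. The 5 B cell genes summed to 5.86 to 8.72 CPM in control and 4.74 to 7.45 in treated libraries, and 9 myeloid and dendritic genes to 2.40 to 4.22 and 1.18 to 3.96. The 6 erythroid and platelet genes summed to 0.274 to 0.595 CPM in control and 0.181 to 0.356 in treated libraries, with Hba-a2, Hbb-bs and Ppbp at 0. Single genes of these lists were called: Adgre1 (macrophages) was 4-fold lower, Cd79b (B cells) 1.4-fold lower and Klrk1 (NK and CD8 T cells) 1.62-fold higher, with edgeR adjusted p = 0.00094, 0.00691 and 0.0171. Their part in the kinesin results was not tested.

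In a dividing cell, mitotic kinesins push spindle poles apart, move chromosomes, trim microtubule ends and build the midzone from which the cell is cut. Most of their genes are switched on in G2 and M phase by the MuvB complex together with B-MYB and FOXM1. MuvB binds a short promoter element called the CHR. Transport kinesins instead carry vesicles, organelles and receptors, most of them towards microtubule plus ends, in resting and dividing cells alike. In T cells, microtubule motors also serve the immunological synapse, where the centrosome moves up to the contact with the other cell.

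The CHR core is TTTGAA, and promoters listed by RefSeq (build GRCm38.p6, 250 bases before to 50 after each start) were searched for it on both strands. A promoter was listed for 25 of the 32 genes, and Kif5a, Kif5b, Kif13b, Kif20a, Kif21b, Kifc2 and Kifc3 had no entry. Mitotic kinesins held the motif in 11 of 12 cases, while it was found in 0 of 8 transport and 0 of 4 other kinesins. Of all 32851 listed promoters 17.9% held it. Within the stretch from 60 bases before to 50 after the start, a window chosen after the positions were seen, 9 of 12 mitotic kinesins had a match against 5.5% of all promoters. Kifc1 and Kifc5b, near-copies of each other, both count among the 9 and among the 11, so their matches may not be independent. The stretches below run from 50 bases before to 20 after the RefSeq start, with TTTGAA, or TTCAAA where the motif lies on the other strand, in capitals. They are shown because the 7 mitotic genes carry the motif within 20 bases of the RefSeq start and the 2 transport genes with the largest rises do not.
Kif11 (chr19:37376332-37376401, plus strand): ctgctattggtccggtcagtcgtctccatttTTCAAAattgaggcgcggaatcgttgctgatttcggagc
Kif15 (chr9:122951031-122951100, plus strand): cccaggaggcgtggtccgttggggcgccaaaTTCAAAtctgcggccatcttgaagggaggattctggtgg
Kif22 (chr7:127042401-127042470, minus strand): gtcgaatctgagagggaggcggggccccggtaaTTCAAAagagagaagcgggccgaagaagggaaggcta
Kif18b (chr11:102925105-102925174, minus strand): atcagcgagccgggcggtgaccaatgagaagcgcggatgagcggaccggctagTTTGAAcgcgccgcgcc
Kif20b (chr19:34922308-34922377, plus strand): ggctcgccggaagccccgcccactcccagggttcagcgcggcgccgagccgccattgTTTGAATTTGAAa
Kif23 (chr9:61946780-61946849, minus strand): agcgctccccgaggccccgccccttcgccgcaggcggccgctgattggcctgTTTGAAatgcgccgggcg
Kifc1 (chr17:33890614-33890683, minus strand): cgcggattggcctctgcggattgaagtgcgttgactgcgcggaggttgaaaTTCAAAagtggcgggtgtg
Kif3b (chr2:153291366-153291435, plus strand): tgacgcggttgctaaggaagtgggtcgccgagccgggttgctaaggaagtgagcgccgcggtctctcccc
Kif1b (chr4:149307714-149307783, minus strand): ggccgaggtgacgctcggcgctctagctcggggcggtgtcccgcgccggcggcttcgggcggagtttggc

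Counted from the start, with bases before it negative, a match began at -19 in Kif11 and in Kif15 and at -17 in Kif22. Kif15 and Kif22 held a further match each, at -234 and -215. In Kifc1 the match began at the second transcribed base, in Kif23 at the third, in Kif18b at the fourth, and Kif20b had adjoining copies from bases 8 and 14. Kif4 and Kifc5b had theirs at bases 20 and 30 and Kif18a had none. In Kif14 and Kif2c the match began at -228 and -103 from the RefSeq start, but these starts are 1505 and 3867 bases inside the gene as GENCODE draws it, so other promoters of these genes were not searched. The RefSeq start of Kif4 likewise lies 328 bases inside its GENCODE gene. Among the printed mitotic genes it lies 51 bases inside in Kif22, 35 in Kif15 and 28 in Kifc1. In Kif11, Kif23, Kif20b and Kif18b it lies at -21, -25, -3 and 0 from the GENCODE start. How close a match is to the start thus depends on the annotation used. CCAAT, a motif that often accompanies the CHR, was searched on both strands too: 8 of 12 mitotic, 3 of 8 transport and 1 of 4 other kinesins held it within the 300 bases, against 37.4% of all promoters. Neither motif contains the other, and a match is a string of letters, not a measured binding site.

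**Figure D1:**
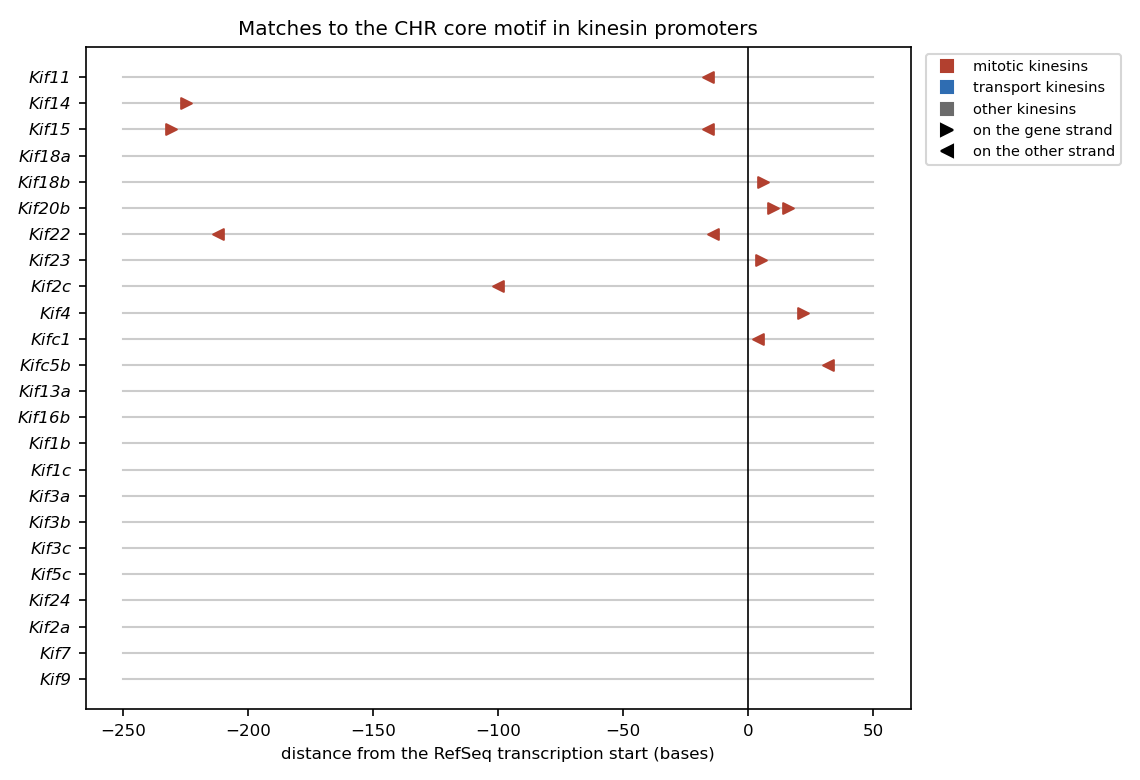
Matches to the CHR core motif in the first listed promoter of 24 kinesin genes, by distance in bases from the RefSeq transcription start (x axis), one gene per line. Triangles point right for a match on the gene strand and left for the other strand; all matches lie in mitotic kinesins, most of them close to the start.

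Mitotic kinesins fell and transport kinesins rose. Of the 13 mitotic genes 12 were lower in treated cells and 0 higher, and the median log2 fold change was -0.30. Of the 13 transport genes 8 were higher and 0 lower, with a median of 0.24. Among the 5 other kinesins 3 were lower, Kif21b among them, and 0 higher. Counting Kif21b as transport instead puts 1 transport gene among those lower. All 31 motor genes were abundant enough to be tested, and 36.8% of all 14443 genes tested were called, at an edgeR adjusted p under 0.05. Called higher were 18.7% and called lower 18.1% of all genes, whose median log2 fold change was 0.00663. Changes were modest, with Kif3b 1.5-fold higher and Kif21b 1.44-fold lower at the ends of the range. Nothing in the labels ties a replicate to its own mouse or culture, so the tests reflect only the variation among these libraries, which may be technical.

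In CPM the groups did not overlap for 12 of 13 mitotic genes, all treated lower, and for 7 of 13 transport genes, all treated higher. Over all genes tested, 16.1% had all treated libraries below all control libraries and 17.7% had them above. With the replicate number as a block, 13 mitotic genes were lower, 9 transport genes were higher, and among the other kinesins 3 were lower and 1 higher. That fit called more genes in general, 52.4% of all genes, with 26.6% higher and 25.8% lower.

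**Figure D2:**
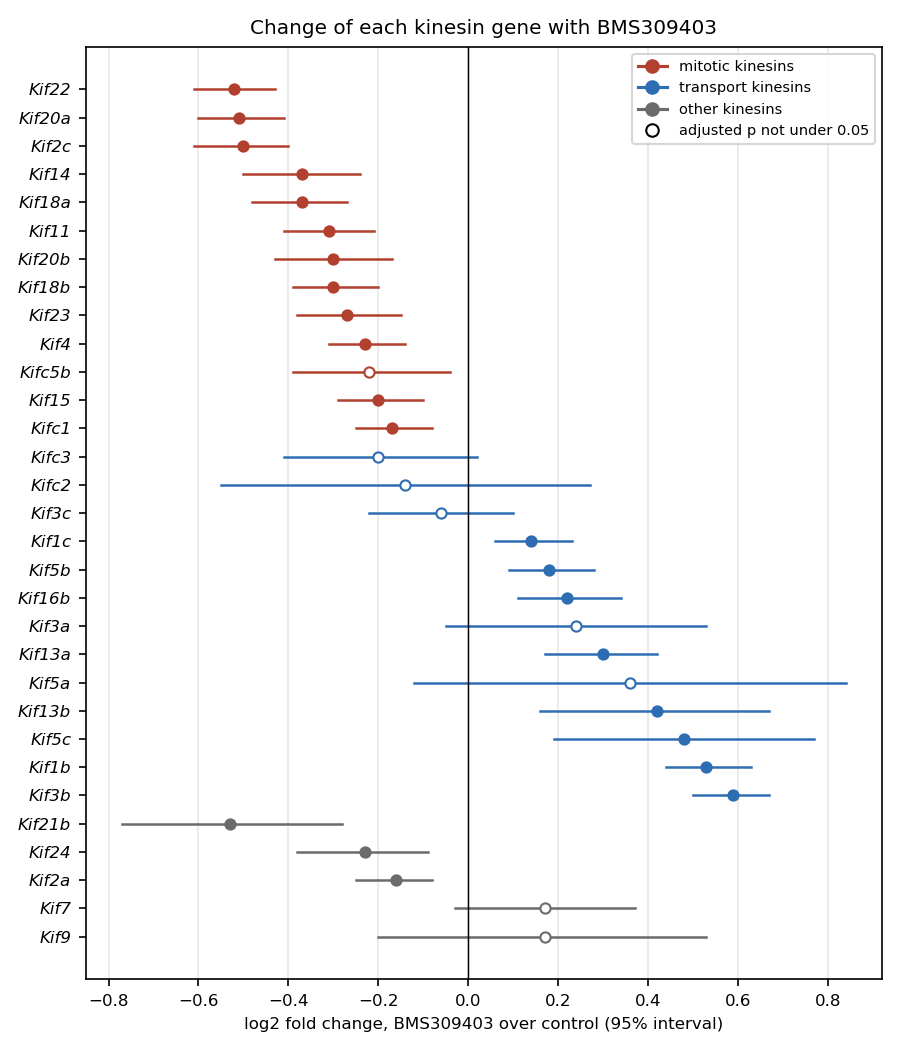
Log2 fold change of each of the 31 kinesin genes, treated over control, with its 95% interval (x axis), ordered by class and size. Filled points passed an edgeR adjusted p of 0.05; every mitotic kinesin lies left of 0 and 10 of 13 transport kinesins lie right of it.

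The summed level of each class showed the same split in every library. The 13 mitotic kinesins together had 1621, 1692, 1671 and 1773 CPM in control and 1373, 1333, 1305 and 1354 CPM in treated libraries. Transport kinesins together had 555, 568, 561 and 594 CPM in control and 703, 727, 702 and 747 CPM in treated libraries. Neither sum overlapped between the groups. Both sums leave out Kif21b, classed among the other kinesins, which had a mean of 385 CPM in control and 267 in treated libraries. Mitotic genes thus made up 74.8% ± 0.196 of mitotic plus transport CPM without the drug and 65.1% ± 0.752 with it (SD, n = 4). No test is given for these sums, since the genes were chosen with results of these data known.

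**Figure D3:**
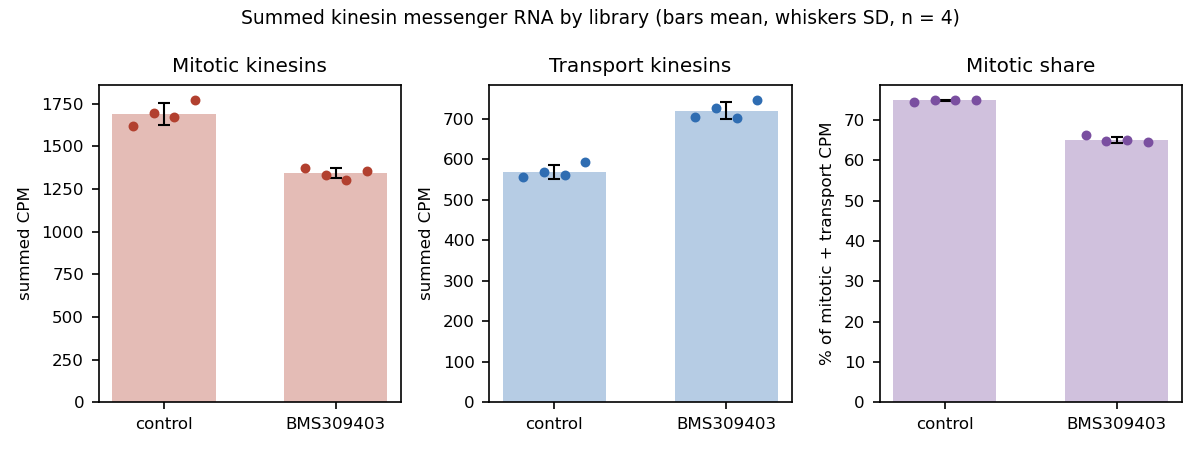
Summed CPM of the mitotic and of the transport kinesins, and the mitotic share of both in percent (y axes, from 0), for control and BMS309403 libraries. Bars are means, whiskers SD and points the 4 libraries of a group; the share is 74.5 to 74.9% in control and 64.4 to 66.2% in treated libraries.

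Levels of different genes are compared per kilobase of exon (CPM per kb). Kif11 stood highest in control, at 50.4 CPM per kb, followed by Kif20a (43.7), Kif22 (32.6), Kifc1 (31.7), Kif21b (31.6) and Kif18b (31.4). The control ranges of the last 4 overlapped. Among transport kinesins Kif3b led with 22.9, then Kif5b with 18.6 and Kif1c with 11.6 CPM per kb. Kif3b and Kif5b carried most of the transport class, while the nerve cell motors Kif5a and Kif5c lay at 0.0942 and 0.230 CPM per kb. In treated libraries Kif3b reached 34.5 CPM per kb, above the 30.8 of Kif20a, and only Kif11 (40.6) remained above it.

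**Figure D4:**
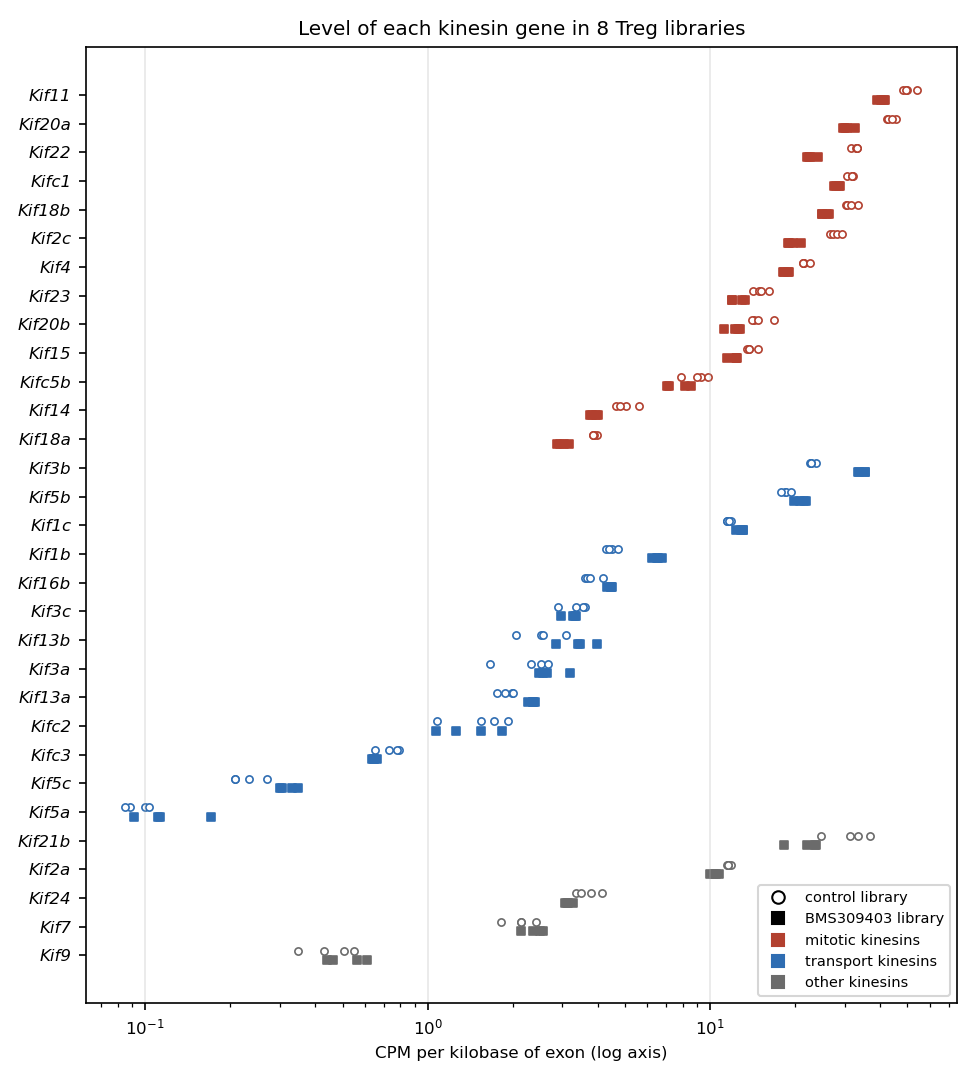
CPM per kilobase of exon (x axis, log scale) of each kinesin gene in each of the 8 libraries, ordered by class and by level in control. Open circles are control and filled squares BMS309403 libraries; Kif11 leads the mitotic, Kif3b the transport and Kif21b the other kinesins.

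Kif22 (ENSMUSG00000030677, chromosome 7, 127027729 to 127042471, minus strand, GRCm38) encodes the chromokinesin Kid, which pushes chromosome arms towards the spindle equator. Control libraries had 155, 161, 163 and 162 CPM and treated libraries 118, 108, 111 and 110. All treated libraries lay well below all controls. The gene was 1.43-fold lower (log2 fold change -0.52, SE 0.04, edgeR adjusted p = 1.32e-06).

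Kif20a (chromosome 18, 34624613 to 34633277, plus strand), a motor of the central spindle needed for cytokinesis, had 184, 198, 186 and 191 CPM in control and 141, 131, 133 and 128 in treated libraries. It was 1.42-fold lower (log2 fold change -0.51, SE 0.04, edgeR adjusted p = 3.30e-06). Cdc23, on the opposite strand, overlaps 29.3% of the exon length of Kif20a, and the sources used here do not say whether reads were counted by strand. Cdc23 itself was not called (log2 fold change 0.04, 95% interval -0.04 to 0.12). Kif20b (chromosome 19), of the same kinesin-6 family, had 99.9, 98.3, 103 and 117 CPM in control and 88.7, 85.3, 78.3 and 87.7 in treated libraries. It was 1.23-fold lower (edgeR adjusted p = 0.00235).

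Kif23 (chromosome 9) encodes the third kinesin-6, which with RACGAP1 forms centralspindlin at the midzone. It had 112, 118, 120 and 128 CPM in control and 94.8, 103, 94.4 and 105 in treated libraries, without overlap. This is a 1.2-fold fall (edgeR adjusted p = 0.00195). Racgap1 itself was 1.21-fold lower (edgeR adjusted p = 0.000267).

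Kif2c (chromosome 4, 117159639 to 117182639, minus strand) encodes MCAK, which takes microtubule ends apart at centromeres and so helps correct wrong attachments. Control libraries had 116, 119, 123 and 128 CPM and treated libraries 91.7, 82.2, 83.2 and 86.1. The gene was 1.42-fold lower (log2 fold change -0.50, SE 0.05, edgeR adjusted p = 6.74e-06). Kif2a, a relative of the same kinesin-13 family that works at spindle poles and also in non-dividing cells, was classed among the other kinesins. Its values were 76.2, 74.3, 73.2 and 74.3 CPM in control and 67.2, 64.1, 68.7 and 66 in treated libraries. It was 1.12-fold lower (edgeR adjusted p = 0.00576). Dimt1, on the opposite strand, overlaps 19.2% of its exon length and had a log2 fold change of 0.21.

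Kif11 (ENSMUSG00000012443, chromosome 19, 37376403 to 37421859, plus strand) encodes the motor Eg5, which slides spindle microtubules apart so that a bipolar spindle forms. It had 359, 373, 368 and 405 CPM in control and 312, 302, 291 and 308 in treated libraries. The fall was 1.24-fold (log2 fold change -0.31, SE 0.05, edgeR adjusted p = 0.00029). Kif15, a kinesin-12 that can stand in for Eg5, fell as well: its treated libraries had 127 to 137 CPM against 149 to 163 in control, 1.15-fold lower (edgeR adjusted p = 0.00392). Tpx2, whose product binds both motors on the spindle, was 1.23-fold lower (edgeR adjusted p = 9.20e-05).

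The plus-end kinesins that damp chromosome movement belong to the kinesin-8 family. Kif18a (chromosome 2) had 39, 38.3, 38 and 38 CPM in control and 30, 28.9, 28.3 and 31.1 in treated libraries, a clear gap for a gene of modest level. It was 1.30-fold lower (edgeR adjusted p = 6.65e-05). Kif18b (chromosome 11), which acts on astral microtubules, had 108, 119, 109 and 113 CPM in control and 94, 88.9, 92.9 and 89.4 in treated libraries. Here the fall was 1.23-fold (edgeR adjusted p = 0.000225).

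Kif14 (chromosome 1), which works at the midbody with citron kinase, had 48.1, 52.2, 49.9 and 58.1 CPM in control and 41.6, 39, 40.9 and 39.7 in treated libraries. It was 1.29-fold lower (edgeR adjusted p = 0.000445). Cit, which encodes citron kinase, was not called, with overlap (log2 fold change -0.18, edgeR adjusted p = 0.0667, and 0.00375 with the replicate block). Kif4 (chromosome X), the chromokinesin that brings PRC1 to the midzone, went from 118 to 125 CPM in control to 100 to 105 in treated libraries, 1.17-fold lower (edgeR adjusted p = 0.000702). Prc1 was 1.21-fold lower (edgeR adjusted p = 0.000455). Pdzd11, on the opposite strand, overlaps 15.1% of the exon length of Kif4 and was 1.12-fold lower itself (edgeR adjusted p = 0.0335).

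Kifc1 and Kifc5b (both on chromosome 17) encode near-copies of the minus-end motor HSET, which bundles microtubules at spindle poles. Of all 50-base stretches in Kifc1 transcripts 38.6% occur in Kifc5b, and 36.6% of those of Kifc5b occur in Kifc1, so their reads may have been split or lost. Kifc1 went from 104 to 110 CPM in control to 93.9 to 98.6 in treated libraries, 1.12-fold lower (edgeR adjusted p = 0.00469). Kifc5b, the single mitotic gene not called, had 29.2 to 36.3 CPM in control and 26.1 to 31.8 in treated libraries, with overlap (log2 fold change -0.22, edgeR adjusted p = 0.0504, and 0.000897 with the replicate block). The pair together summed to 133, 143, 143 and 146 CPM in control and 120, 128, 124 and 129 in treated libraries, without overlap.

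Kif3b (ENSMUSG00000027475, chromosome 2, 153291413 to 153333390, plus strand) had the largest rise among the transport kinesins. Its product pairs with KIF3A and the adaptor KAP3 to form the kinesin-2 motor, known for transport in cilia and of vesicles. Control libraries had 134, 127, 128 and 128 CPM and treated libraries 188, 200, 190 and 199. Every treated library stood far above every control. The rise was 1.5-fold (log2 fold change 0.59, SE 0.04, edgeR adjusted p = 5.06e-07).

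The partners of Kif3b did not pass the threshold. Kif3a had 5.98, 8.34, 9.04 and 9.58 CPM in control and 8.90, 9.46, 9.18 and 11.5 in treated libraries, with overlap (log2 fold change 0.24, 95% interval -0.05 to 0.53, edgeR adjusted p = 0.179, and 0.0161 with the replicate block). Kif3c, the alternative partner of Kif3a, was not called either (21.4 to 26.8 CPM in control, 21.9 to 24.8 in treated libraries, log2 fold change -0.06, 95% interval -0.22 to 0.10), and genes on the opposite strand overlap 43.3% of its exon length. Kifap3, which encodes KAP3, had 18.1 ± 1.69 CPM without and 18.5 ± 1.22 with the drug (SD, n = 4). Per kilobase of exon, the Kif3b level was 8.52 to 14.3 times that of Kif3a in control and 11 to 13.5 times in treated libraries.

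Kif1b (ENSMUSG00000063077, chromosome 4, 149176319 to 149307693, minus strand), whose isoforms carry mitochondria or vesicles, had 79.5, 75.7, 77.6 and 83.4 CPM in control. Treated libraries had 114, 115, 110 and 119 CPM. With no overlap the rise was 1.45-fold (log2 fold change 0.53, SE 0.04, edgeR adjusted p = 2.34e-06). Counts per gene do not part the isoforms. Kif1bp, whose product binds KIF1 family motors, did not pass the threshold (31.4 to 36.3 CPM in control, 33.8 to 37 in treated libraries, edgeR adjusted p = 0.351). Kif1c, a vesicle motor of the same kinesin-3 family, rose from 83.3 to 86.7 CPM in control to 89.8 to 95.1 in treated libraries (1.10-fold, edgeR adjusted p = 0.0107).

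Other kinesin-3 transport genes rose too. Kif13a (chromosome 13), an endosome motor, had 14.3, 16.1, 15.2 and 16.2 CPM in control and 19.4, 18.3, 19.2 and 19.2 in treated libraries. This is a 1.23-fold rise (edgeR adjusted p = 0.00205). Kif13b (chromosome 14), which carries membrane proteins, varied more, with 26.8, 32.9, 33.3 and 40.4 CPM in control and 37.2, 45, 44.5 and 51.7 in treated libraries. The groups overlapped, and the 1.33-fold rise (edgeR adjusted p = 0.0156) lost its call without treated replicate 4 (adjusted p = 0.0508). Kif16b, which moves early endosomes, went from 32.7 to 37.8 CPM in control to 39.2 to 40.9 in treated libraries (1.17-fold, edgeR adjusted p = 0.00646).

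Kif5b (chromosome 18, 6201002 to 6242174, minus strand) encodes the widely expressed heavy chain of conventional kinesin. It had 147, 148, 143 and 155 CPM in control and 175, 167, 158 and 172 in treated libraries, a 1.13-fold rise without overlap (edgeR adjusted p = 0.0072). It made up 98.3% ± 0.164 of the kinesin-1 heavy chain level per kilobase without the drug and 97.9% ± 0.255 with it (SD, n = 4). Kif5c, at 1.49, 1.48, 1.93 and 1.67 CPM in control and 2.14, 2.18, 2.48 and 2.36 in treated libraries, was 1.39-fold higher (edgeR adjusted p = 0.0142). That call was lost without control replicate 2 (adjusted p = 0.0515). Kif5a stayed at or under 1.2 CPM in every library and was not called.

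The minus-end transport genes Kifc2 and Kifc3 did not pass the threshold. Kifc2 had 4.24 to 7.58 CPM in control and 4.20 to 7.19 in treated libraries (log2 fold change -0.14, 95% interval -0.55 to 0.27). Kifc3, which acts at cell junctions and on Golgi membranes, had 3.45 to 4.20 and 3.38 to 3.50 CPM (log2 fold change -0.20, 95% interval -0.41 to 0.02), and genes on the opposite strand overlap 27.5% of its exon length. Along with Kif3c they were the transport kinesins with a negative log2 fold change.

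Kif21b (ENSMUSG00000041642, chromosome 1, 136131389 to 136177998, plus strand) was, with Kif22, Kif20a and Kif2c, among the 4 kinesins with a log2 fold change of -0.50 or below. It is a kinesin-4 of neurons and lymphocytes that halts microtubule growth and, in T cells, helps the centrosome reach the synapse. Control libraries had 302, 406, 381 and 450 CPM and treated libraries 222, 289, 269 and 287. All treated libraries lay below all controls, although the lowest control (302) and highest treated library (289) were close. The gene was 1.44-fold lower (log2 fold change -0.53, SE 0.11, edgeR adjusted p = 0.00314). With the replicate block, which compares libraries of the same number, the adjusted p was 8.88e-09. Its log2 fold change ranged from -0.63 without control replicate 1 to -0.45 without control replicate 4 or treated replicate 1.

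The remaining kinesins were lower in level. Kif24, a kinesin-13 of the centriole, had 26.9 to 33.3 CPM in control and 24.6 to 26.2 in treated libraries (1.18-fold lower, edgeR adjusted p = 0.0164). Kif7, a regulator of Hedgehog signalling, was not called (8.33 to 11.1 CPM in control, 9.82 to 11.7 in treated libraries, log2 fold change 0.17, edgeR adjusted p = 0.178), but passed with the replicate block (adjusted p = 0.0303). Genes on the opposite strand, Ticrr among them, overlap 20.3% of its exon length, and Ticrr was 1.13-fold lower (edgeR adjusted p = 0.00824). Kif9 lay at 1.49 to 2.62 CPM over all 8 libraries and was not called (edgeR adjusted p = 0.459). Below the minimum count were 11 kinesins, among them Kif17 with 11 reads, Kif1a with 6, the Kif21b paralogue Kif21a with 5, and Kif12, Kif2b and Kif6 with 0 reads.

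Most listed genes that work with the mitotic kinesins fell alongside them. Of 24 spindle partners 20 were lower (83.3%, against 18.1% of all genes) and 0 higher, and their median log2 fold change was -0.33. The 4 not called were Cenpe, Cit, Numa1 and Kntc1, and the last 2 lay near 0 (log2 fold change -0.01 and 0.00). The largest falls were those of Cep55, an abscission scaffold (1.49-fold), Hmmr, a spindle pole protein (1.40-fold), the mitotic kinase Plk1 (1.37-fold) and the kinetochore subunit Spc25 (1.36-fold). Cenpe, the kinetochore kinesin whose symbol falls outside the naming pattern, had 169 ± 19.5 CPM without and 148 ± 7.24 with the drug (SD, n = 4), with overlap (edgeR adjusted p = 0.0611, and 0.00126 with the replicate block).

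Of 24 general G2 and M phase genes 20 were lower (83.3%, again against 18.1%) and 0 higher, with a median log2 fold change of -0.36. Cenpa, the centromeric histone, was 1.46-fold lower, the phosphatase genes Cdc25b and Cdc25c 1.43-fold and 1.40-fold lower, and Cdc20, an activator of the anaphase-promoting complex, 1.42-fold lower. In bulk RNA, fewer cells in G2 and M phase and less RNA per such cell cannot be told apart. Among genes whose products bind the CHR or act with it, Mybl2 (B-MYB) was 1.12-fold lower (edgeR adjusted p = 0.0339), a call lost when any 1 of control replicates 1 to 3 or treated replicates 2 to 4 was left out (adjusted p up to 0.0907). Foxm1 (log2 fold change -0.10, edgeR adjusted p = 0.0913), Lin9 (-0.11, adjusted p = 0.165) and Lin54 (0.10, adjusted p = 0.0802) were not called. With the replicate block these passed, at adjusted p = 0.00943, 0.0373 and 0.0231 in the same order.

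Of 25 subunits and cargo adaptors of transport kinesins 22 were tested, with a median log2 fold change of 0.09. Higher were 6 of these (27.3%, against 18.7% of all genes) and lower 2 (9.09%, against 18.1%). The share higher was thus above and the share lower below that of all genes. In so short a list these differences rest on few genes, and they were not tested. Klc2, a light chain of conventional kinesin, rose 1.29-fold (20.5 ± 0.915 to 26.5 ± 1.51 CPM, SD, n = 4). The main light chain gene by level, Klc1, was not called (85.8 ± 5.56 and 92.7 ± 3.91 CPM, SD, n = 4, edgeR adjusted p = 0.113, and 0.0139 with the replicate block). Plekhm2, which links lysosomes to kinesin-1, and Fez2, an adaptor, both rose 1.24-fold, while Map7d1, which recruits kinesin-1 to microtubules, was 1.28-fold lower.

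Cytoplasmic dynein, with its activator dynactin, is the motor that runs towards minus ends. Of its 28 listed genes 26 were tested, with a median log2 fold change of 0.03. Higher were 6 (23.1%, against 18.7% of all genes) and lower 5 (19.2%, against 18.1%), shares close to those of all genes. Hook2, an adaptor, rose 1.29-fold and Dync1h1, the dynein heavy chain, 1.26-fold (277 ± 22.4 to 350 ± 25.5 CPM, SD, n = 4). Dctn4, a dynactin subunit, rose 1.16-fold and Dynlrb1, a small dynein chain, was 1.18-fold lower.

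**Figure D5:**
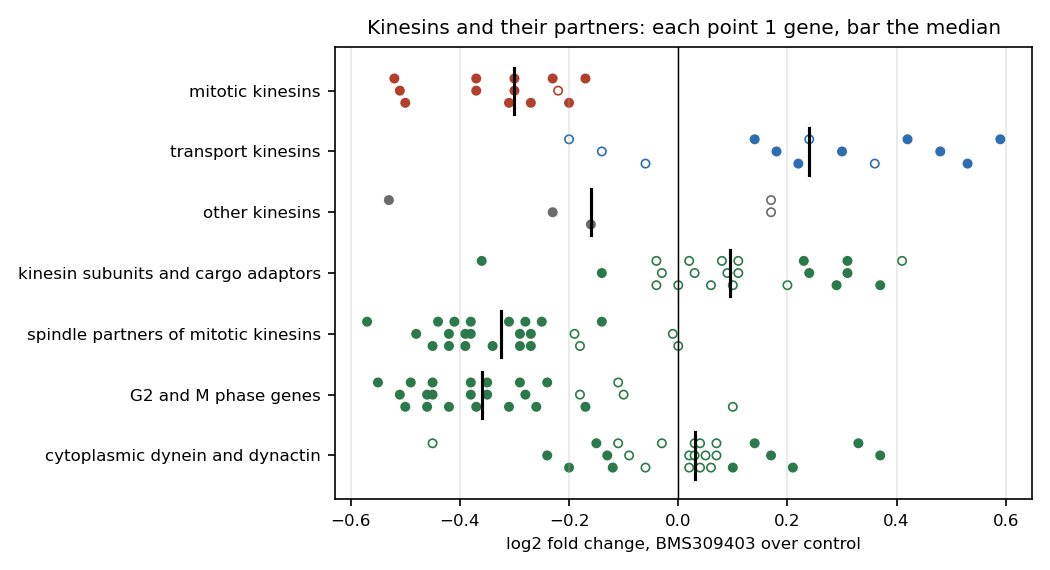
Log2 fold change, treated over control (x axis), of each tested gene in the 3 kinesin classes and in 4 lists of genes that work with them; 1 point per gene, filled where the edgeR adjusted p was under 0.05, with the median as a bar. Spindle partners and G2 and M phase genes lie on the side of the mitotic kinesins, and dynein genes spread around 0.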

How the data were processed

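Poly(A)-selected stranded RNA libraries from control cells (4 libraries) and treated cells (4 libraries) were analysed. The deposited files hold raw counts of reads per Ensembl gene, with 53465 IDs each; the submitters' processing notes name STAR, featureCounts, DESeq2 and deepTools and the build GRCm38, without roles or versions. Annotation release, strand setting and treatment of multi-mapped reads are not given in the sources used here.

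Symbols, coordinates and exon lengths came from GENCODE M21, which matched 53360 IDs. Genes were tested with edgeR 4.0.16 (R 4.3.3), quasi-likelihood F-test, filterByExpr, TMM scaling, treatment only, with Benjamini-Hochberg adjustment over 14443 genes; every adjusted p comes from it unless another fit is named. SEs were derived from the F statistic. CPM uses TMM-scaled library sizes. DESeq2 1.42.0, limma-voom (limma 3.58.1), other scalings and filters and leaving out each library were alternatives. The script was tested on simulated data. Replicates differed by more than sampling noise (chi-square per degree of freedom 3.08 to 24.2).

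Subtracting group means, libraries that share a replicate number correlated at 0.384, 0.145, 0.106 and 0.264, all above 0.1. Control replicate 4 with treated replicate 2 correlated at 0.208, above the same-number pairs at 0.145 and 0.106. Other pairs of different number ranged from -0.289 to 0.0595. The labels do not say that the numbers of the titles pair samples. These numbers entered only the fit with the replicate block, and the main fit, with treatment only, does not pair libraries.

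The kinesin genes, classes and lists were chosen with earlier results of these data known. Library values are printed for kinesins called at 1.2-fold or more and for the 2 highest per kilobase in each class, and other kinesins by range, except that Kif3a, as the partner of Kif3b, was given in full after its values were seen. Up to 4 called genes per partner list are named by size. Cenpe, Cit, Numa1, Kntc1, Racgap1, Prc1, Tpx2, Kifap3, Klc1, the CHR regulators and genes overlapping kinesins were chosen after their values were seen.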

Additional observations from a re-analysis of the deposited data

Results flagged for a closer look

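Each kinesin gene was checked for a library far from the other 3 of its group. Of 64 sets of 4 libraries 2 had a lowest or highest library beyond the 95% critical value of Dixon's test, while chance gives about 1 in 20. Kif15 had 127 CPM in treated replicate 3 against 136 in the nearest treated library, and without that replicate its adjusted p was 0.0142. Kif3c had 21.9 CPM in treated replicate 1 against 24.3 in the nearest, and stayed uncalled without it (adjusted p = 0.858).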

How the results depend on the processing

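By genes called, the fall of mitotic and the rise of transport kinesins kept their direction and a similar count under every alternative run. The replicate block changed the call of Kifc5b, Kif3a and Kif7 and of no other gene among the 31. Leaving out each library gave 12 to 13 mitotic genes lower and 7 to 8 transport genes higher, and moved the difference in mitotic share from -9.69 to between -10.05 and -9.48 percentage points. With Kif2a counted as mitotic and Kif21b as transport that difference was -6.12, and per kilobase of exon -8.48. Counting Kif21b as transport put 1 transport gene among those lower. Kif21b fell from a mean of 385 CPM in control to 267 in treated libraries, against transport sums of 570 and 720 CPM without it. The size of the rise in the transport sum, and its lack of overlap, thus depend on leaving Kif21b out. With the replicate block 1 other kinesin and 1 G2 and M phase gene were higher; upper-quartile and total-count scaling also gave 1 such G2 and M phase gene. Adaptors called lower went from 2 to 1 with total-count scaling, with no filter, and ranged from 1 to 2 without each library. Dynein genes called lower went from 5 to 3 with no filter and ranged from 3 to 5 without each library. Those called higher went from 6 to 5 with RLE scaling and with no filter, and ranged from 4 to 6 without each library. Kifc5b passed under 8 of 16 alternatives. No single kinesin changed sign. Kif5a and Kif9 had low counts and wide intervals (-0.12 to 0.84 and -0.20 to 0.53).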

Other observations

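Many kinesin genes shared the order of their libraries within a group. In control libraries replicate 1 had the lowest CPM for 21 of 31 motor genes and replicate 4 the highest for 19. In treated libraries replicate 1 was lowest for 14 and replicate 3 for 9 of 31, and replicate 1 was lowest in both groups for 9 genes. Kif21b, for example, had 302 CPM in control replicate 1 and 450 in control replicate 4, and 222 in treated replicate 1 against 289 in treated replicate 2. The same replicate number was lowest in both groups for 11 of 31 motor genes. These counts were not taken over all genes, so the order may not be particular to kinesins. Over all genes with enough counts, control replicate 1 differed from the other controls by a chi-square per degree of freedom of 11.2 to 24.2. The other control pairs had 3.08 to 8.29. The cause was not tested.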
